A study of Mus musculus with 4 samples.

Results

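The ETS family transcription factors of B cells described here are 10 genes, Spi1, Spib, Ets1, Fli1, Etv6, Elf1, Elf2, Elf4, Gabpa and Elk4, picked by symbol out of 20735 genes listed in at least 1 of 4 expression tables. All 10 were listed in every library and had a mean of at least 1 FPKM (fragments scaled to transcript length and library size), so all 10 were among the 10883 genes tested. The RNA came from germinal centre (GC) B cells, which diversify their antibodies by mutation and compete for antigen, sorted from spleens of C57BL/6 mice aged 8 weeks and immunized with sheep red blood cells. There were 2 libraries from wild-type cells (wt 1 and wt 2) and 2 from cells labelled as knockout (ko 1 and ko 2) of Nsd2, a histone H3 lysine methyltransferase. The sources used here do not give how the knockout was made, in which cells it acts or whether animals were pooled.

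ETS factors share a DNA-binding domain, the ETS domain, that recognizes a GGAA core in DNA, and they differ in the bases they prefer around it and in their partner proteins. PU.1 (encoded by Spi1) and Spi-B bind purine-rich sites and, with the interferon regulatory factors Irf4 and Irf8, composite ETS-IRF sites in B cells. GABP and the ternary complex factors such as Elk4 favour the longer CCGGAAGT sequence, which lies in many promoters of housekeeping genes. In mice Ets1 restrains the passage of B cells to plasma cells, and PU.1 and Spi-B act partly in each other's place in B cell receptor signalling.

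Promoter windows, which run from 250 bases before to 50 bases after a RefSeq transcript start on GRCm38.p6, were found for 7 of the 10 genes, and Spi1, Ets1 and Fli1 had none. Both strands of the 12 windows of these genes were searched for CCGGAAGT (the GABP and Elk type), GAGGAAGT (the PU.1 type) and the composite ETS-IRF type, which is GGAA followed after any 2 bases by GAAA. None of the motifs overlaps another in the stretches shown. Elk4 held the GABP type and the PU.1 type, Gabpa held the PU.1 type, and the composite type was in none of the 12 windows. The 250 bases upstream of 3 genes are printed 5′ to 3′ on the strand of the gene, with these motifs in capitals. Spib is shown because it was the member that passed the test between genotypes, and Elk4 and Gabpa because their windows carry ETS letters. They lie at chr7:44532072-44532321 (minus strand), chr1:132007370-132007619 (plus strand) and chr16:84834874-84835123 (plus strand).
Spib: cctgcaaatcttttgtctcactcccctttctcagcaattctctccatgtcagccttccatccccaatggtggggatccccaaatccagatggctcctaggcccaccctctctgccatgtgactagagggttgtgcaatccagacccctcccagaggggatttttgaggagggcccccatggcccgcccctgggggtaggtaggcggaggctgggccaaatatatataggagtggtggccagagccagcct
Elk4: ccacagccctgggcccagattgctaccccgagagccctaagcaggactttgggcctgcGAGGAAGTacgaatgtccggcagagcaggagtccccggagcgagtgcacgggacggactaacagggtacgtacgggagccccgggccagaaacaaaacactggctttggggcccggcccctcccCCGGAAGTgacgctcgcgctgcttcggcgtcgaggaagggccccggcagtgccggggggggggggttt
Gabpa: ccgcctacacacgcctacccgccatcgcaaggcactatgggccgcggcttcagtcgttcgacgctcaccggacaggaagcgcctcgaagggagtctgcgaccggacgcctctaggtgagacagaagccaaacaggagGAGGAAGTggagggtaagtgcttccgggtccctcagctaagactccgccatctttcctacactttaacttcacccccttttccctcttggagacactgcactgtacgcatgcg
The CCGGAAGT of Elk4 begins 68 bases before the transcript start and its GAGGAAGT 192 bases before it, while the GAGGAAGT of Gabpa begins 113 bases before the start. Among all 32851 windows of this length in the table, 3.89% held CCGGAAGT, 3.20% held GAGGAAGT and 2.72% held the composite ETS-IRF motif.

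The libraries listed 17731 to 17922 genes, and steps among the lowest values gave relative depths of 94.2% (wt 2), 75.8% (ko 1) and 77.6% (ko 2) beside wt 1, lower in both ko libraries. Nothing in the labels ties each library to its own mouse, and the p-values then measure only the spread between these libraries. Nsd2, listed under its older symbol Whsc1, was at 76.9 and 81.4 FPKM in wt against 31.4 and 34.1 in ko (limma adjusted p = 0.000353). All 12 markers of GC B cells were listed, and their FPKM summed to 1363 and 1359.7 in wt against 1349 and 1356 in ko. Of the 12, 1 rose, Rgs13 from 141.6 and 141.9 to 189.7 and 186.1 FPKM (limma adjusted p = 0.00176), and 2 fell. Over all tested genes 12.9% passed the same test. In log2 fold change 4 of the 12 lay above 0 and 8 below it, with a median of -0.07. The rise of Rgs13 is part of the sums, so near-equal sums do not mean that the other markers were level.

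The mean level of 8 of the 10 ETS factors differed between genotypes by less than 10%, and the other two, Elk4 and Etv6, were 10.6% and 30.6% lower in ko. Spib was 6.26% lower, and it was the only member past the threshold (limma, Benjamini-Hochberg adjusted p below 0.05 over all 10883 genes). Of the 10 members 0 rose and 1 fell, where 12.9% of all tested genes passed, 6.66% upward and 6.2% downward, so the count lies near the background. The members had a median log2 fold change of 0.02 and a median absolute change of 0.09, beside 0.01 and 0.10 over all tested genes. At an unadjusted p below 0.05 there were 5 members, Spib, Elk4, Fli1, Ets1 and Elf2, where 32.2% of all tested genes passed. The values of the genotypes did not overlap in 7 of 10 members, beside 61.2% of all tested genes. Fewer cells of a kind and less RNA per cell cannot be told apart in such bulk samples.

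Spib stood far above the other members in both genotypes, followed by Ets1, Elf1, Spi1 and Gabpa in the same order in wt and ko, with library values that did not overlap between neighbours. In wt the mean level was 361.3 ± 1.91 FPKM for Spib, 169.4 ± 3.97 for Ets1, 98.7 ± 2.39 for Elf1, 59.3 ± 3.15 for Spi1 and 35.8 ± 0.67 for Gabpa (SD, n = 2). Fli1, Elf2 and Elf4 followed at 29.9, 29.6 and 29.2 FPKM in wt, where the library values of neighbours in this order overlapped. In ko they stood apart, as Fli1 (32.4), Elf4 (30.3) and Elf2 (27.2). Elk4 and Etv6 came last in both genotypes. FPKM is per transcript length, which lets levels be set side by side between genes, and the tables give 1 value per gene, so isoforms were not separated.

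**Figure D1:**
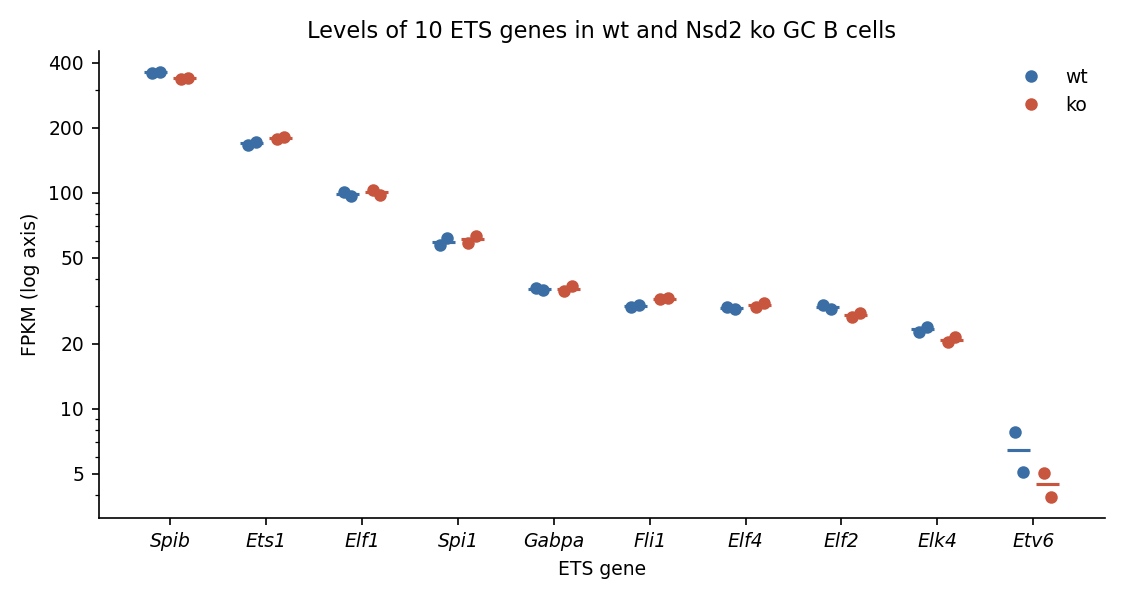
FPKM on a log axis of the 10 ETS genes, ordered by mean level, in 2 wt (blue) and 2 ko (red) libraries, with points for libraries and a line for the mean of each genotype. Spib, the highest, sits at 360.0 and 362.7 in wt against 337.6 and 339.8 in ko, and Etv6, the lowest, has the widest scatter between libraries.

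Spi-B and PU.1, the SPI class of the family, both act in B cell gene control. Spib (ENSMUSG00000008193, GRCm38 chromosome 7, 44525993 to 44532071, minus strand) was at 360.0 and 362.7 FPKM in wt against 337.6 and 339.8 FPKM in ko. Both ko libraries lay below both wt libraries, and the gap was larger than the spread within either genotype. The log2 fold change was -0.09 ± 0.02 (SE), with a 95% interval of -0.15 to -0.04 (limma adjusted p = 0.0437). The call was lost when any 1 library was left out, as were most calls over all tested genes, with log2 fold changes of -0.10 to -0.09. It was also lost with the replicate number as a block (limma adjusted p = 0.0647), without a filter on low values (0.120) and without the trend of spread on expression (0.232), at the same fold change.

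Spi1 (ENSMUSG00000002111, chromosome 2, 91082390 to 91115756, plus strand) was at 57.1 and 61.6 FPKM in wt against 58.8 and 63.2 FPKM in ko. The genotypes overlapped, and the spread within each was wider than the gap between them. Its log2 fold change was 0.04 with a 95% interval of -0.09 to 0.16 (limma adjusted p = 0.644), a range of 0.942 to 1.12 in fold on the FPKM + 1 scale, and the sign flipped when wt 1 or ko 2 was left out or the GC content trend was removed. The ratio of Spib to Spi1 FPKM was 6.30 and 5.89 in wt against 5.74 and 5.38 in ko. All 4 ratios thus favoured Spib, and both ko ratios lay below both wt ratios, which gives an exact two-sided permutation p of 0.333, the smallest that 2 libraries against 2 allow. Spic, the remaining gene of the class and a factor of red pulp macrophages in mice, lay between 0.079 and 0.147 FPKM in wt and between 0.241 and 0.314 in ko, under the level for testing. The macrophage and monocyte markers, all 15 of which were listed above 0 in at least 1 library, summed to 7.46 and 6.53 FPKM in wt against 10.8 and 11.1 FPKM in ko. The largest part was Cd68, at 5.11 and 3.89 in wt against 5.25 and 5.84 in ko (limma adjusted p = 0.202). Of the 15, C1qb, Cd163 and Ms4a7 overlapped between genotypes, and the rest were higher in ko. Lyz2, the macrophage marker that passed the test, was at 0.333 and 0.605 FPKM in wt against 1.59 and 1.64 in ko (limma adjusted p = 0.0179). Of the defining markers, Csf1r was at 0.216 and 0.147 FPKM in wt against 0.275 and 0.387 in ko, and Adgre1 at 0.325 and 0.251 in wt against 0.919 and 0.732 in ko, so both were low and higher in ko. Dendritic cells also express Spi1, and plasmacytoid ones Spib. The 11 dendritic markers, of which Clec10a was at 0 in all libraries, summed to 81.1 and 73.9 FPKM in wt against 98.8 and 94.8 in ko. Most of it was Ly6d, at 66.6 and 58.0 in wt against 76.6 and 74.2 in ko. The median level of the 11 was 0.07 FPKM, so most of them were too low for testing. All 3 that were tested rose, Bst2 by a log2 fold change of 0.63, Flt3 by 0.31 and Ly6d by 0.28 (limma adjusted p = 0.0148, 0.0339 and 0.0406). Siglech, a defining marker of plasmacytoid cells, was at 0.104 FPKM in wt 1 and at 0 in the other libraries. Of the other low dendritic markers, Xcr1, Clec9a, Itgax, Zbtb46 and Cd209a overlapped between genotypes. Ccr9 was higher in ko, at 0.072 and 0.075 FPKM against 0.020 and 0.017 in wt. The part of these cells in the Spib, Spi1 and Spic values was not tested.

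Ets1 and Fli1 are neighbours on mouse chromosome 9, transcribed away from each other with 93.4 kb between them, and both lay slightly higher in ko. Ets1 (ENSMUSG00000032035, 32636221 to 32757820, plus strand) was at 166.6 and 172.2 FPKM in wt against 176.6 and 182.2 FPKM in ko. The genotypes did not overlap, although the lower ko library stood only a little above the higher wt library. The log2 fold change was 0.08 ± 0.03 (SE; 95% interval 0.01 to 0.16, limma adjusted p = 0.123). Fli1 (ENSMUSG00000016087, 32422204 to 32542861, minus strand), a factor of blood and endothelial development, was at 29.6 and 30.2 FPKM in wt against 32.2 and 32.6 FPKM in ko. Here too the ko libraries lay above both wt libraries. Its log2 fold change was 0.11 ± 0.04 (SE; 95% interval 0.02 to 0.21, limma adjusted p = 0.106). The ratio of Ets1 to Fli1 FPKM was 5.63 and 5.71 in wt against 5.49 and 5.59 in ko.

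Neither gene passed the threshold as deposited, and both passed it once trends on GC content and genomic span were removed. Ets1 spans 121.6 kb and Fli1 120.7 kb, and across the data long genes were lower in ko. The median log2 fold change of the 1019 tested genes over 100 kb was -0.10, and that of the 3354 genes of up to 10 kb was 0.05. It was -0.04 in the 2713 genes with the lowest GC content and 0.07 in the 2713 with the highest, while Ets1 has 47.3% and Fli1 44.5%. With both trends removed the log2 fold change was 0.19 for Ets1 (limma adjusted p = 0.0176) and 0.24 for Fli1 (0.0172), where 11.6% of all tested genes passed. In that setting Spib moved to -0.17 (0.0118), from 6.08 kb and 54.9% GC content. With the replicate block added, Ets1 had an adjusted p of 0.0118, Fli1 of 0.0186 and Spib of 0.0101. T cells express Ets1 and Fli1 as well. The T cell marker Cd3e was at 0 and 0.092 FPKM in wt against 0.189 and 0.113 in ko. Cd3d was at 0.030 and 0 in wt against 0.160 and 0.079 in ko, so both were low and higher in ko. Cd4, at 0.282 and 0.133 in wt against 0.238 and 0.157 in ko, overlapped between genotypes. The 13 listed T cell markers summed to 40.0 and 39.2 FPKM in wt against 43.7 and 48.6 FPKM in ko, most of it Lck, at 36.9 and 36.4 in wt against 39.5 and 44.3 in ko. Endothelial markers summed to 13.3 and 13.7 FPKM in wt against 15.2 and 14.9 in ko, most of it Pecam1, at 12.6 and 13.1 in wt against 14.8 and 14.4 in ko. Cdh5, a defining endothelial marker, went the other way, at 0.546 and 0.393 FPKM in wt against 0.173 and 0.230 in ko. The part of these cells in the Ets1 and Fli1 values was not tested.

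**Figure D2:**
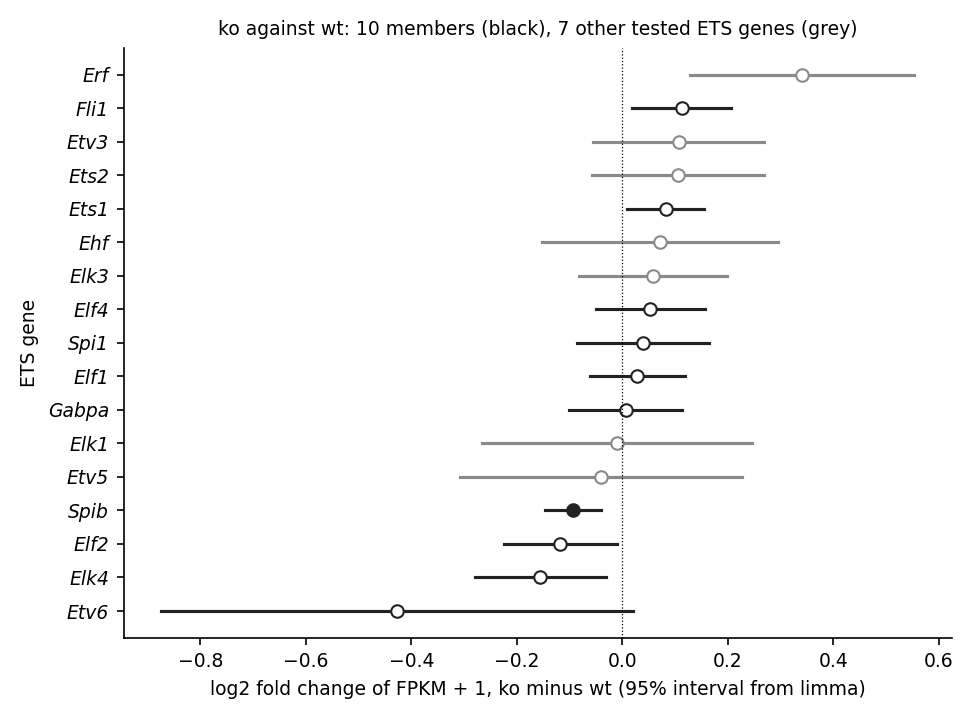
Log2 fold change (ko minus wt, FPKM + 1) with its 95% interval from limma for the 10 members in black and 7 other tested ETS genes in grey, with a filled point for an adjusted p below 0.05. Spib, at -0.09, carries the single filled point, and Etv6 has the widest interval, -0.87 to 0.02.

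No gene of the ELF class passed the threshold as deposited, and differences between these genes were not tested. Elf1, a factor that binds the retinoblastoma protein, was at 100.4 and 97.0 FPKM in wt against 103.3 and 98.0 FPKM in ko, so that the genotypes overlapped (log2 fold change 0.03, 95% interval -0.06 to 0.12, limma adjusted p = 0.644). Its annotated start overlaps Wbp4 on the other strand, at 13.9 and 13.2 FPKM in wt against 13.5 and 13.8 in ko. Elf4, which limits the division of CD8 T cells in mice, was at 29.5 and 28.8 FPKM in wt against 29.7 and 30.9 FPKM in ko (log2 fold change 0.05, 95% interval -0.05 to 0.16, limma adjusted p = 0.437). The ko values of Elf4 lay above both wt values by less than the spread within ko. Elf2, the closest relative of both, was at 30.1 and 29.0 FPKM in wt against 26.7 and 27.7 FPKM in ko. Both ko libraries were below both wt libraries, with a log2 fold change of -0.12 ± 0.04 (SE; 95% interval -0.22 to -0.01, limma adjusted p = 0.129). With the trends on GC content and span removed Elf2 was at -0.03 and Elf1, which spans 101.3 kb, at 0.14 (limma adjusted p = 0.660 and 0.0558). The replicate block together with these trends took Elf1 past the threshold (0.0315).

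Gabpa, the DNA-binding subunit of GABP, had the smallest difference in mean between genotypes. It was at 36.3 and 35.3 FPKM in wt against 34.9 and 37.1 FPKM in ko, and both wt values lay between the ko values. Its log2 fold change was 0.01, with a 95% interval of -0.10 to 0.11 (limma adjusted p = 0.927). Its partner subunits were also close between genotypes, with Gabpb1 at 18.99 and 19.3 FPKM in wt against 19.3 and 20.3 in ko, and Gabpb2 at 42.5 and 42.3 in wt against 43.7 and 43.5 in ko (limma adjusted p = 0.571 and 0.477). Gabpa begins within the span of Atp5j, a subunit gene of the mitochondrial ATP synthase on the other strand, and their annotated spans share 701 bases. Atp5j was at 109.1 and 103.7 FPKM in wt against 98.6 and 100.6 in ko (log2 fold change -0.09, limma adjusted p = 0.121). Whether the authors' counting used strand is not given, so reads of the shared stretch may be split between the genes.

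Elk4, the ternary complex factor that joins Srf on promoters of immediate early genes and answers to MAP kinases, was at 22.8 and 24.0 FPKM in wt against 20.4 and 21.4 FPKM in ko. Both ko libraries lay below both wt libraries, with a mean 10.6% lower, the second largest difference among the members in percent. The log2 fold change was -0.16 ± 0.05 (SE; 95% interval -0.28 to -0.03, limma adjusted p = 0.095), and it was -0.19 to -0.12 with 1 library left out. The related genes Elk3 and Elk1 had no such gap. Elk3 was at 17.5 and 17.9 FPKM in wt against 19.3 and 17.7 in ko, and Elk1 at 4.67 and 3.79 in wt against 4.06 and 4.30 in ko. Srf itself was at 24.6 and 22.9 FPKM in wt against 25.5 and 25.9 in ko (log2 fold change 0.11, limma adjusted p = 0.174). The annotated span of Elk4 overlaps that of Mfsd4 on the other strand, which was at 14.8 and 16.7 FPKM in wt against 16.5 and 16.0 in ko.

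Etv6, a repressor that is fused to RUNX1 in human childhood leukaemia, was the lowest and most variable member. It was at 7.81 and 5.08 FPKM in wt against 5.03 and 3.92 FPKM in ko. The wt 1 library stood apart, and wt 2 and ko 1 were nearly level. The mean was 30.6% lower in ko, with a log2 fold change of -0.43 ± 0.19 (SE; 95% interval -0.87 to 0.02, limma adjusted p = 0.171). Without wt 1 the log2 fold change was -0.16, and without wt 2 it was -0.69 (limma adjusted p = 0.558 and 0.0455), so it rested on which wt library was kept. Etv6 spans 234.5 kb, the longest of the members, and was at -0.29 with the trends on GC content and span removed (limma adjusted p = 0.354).

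**Figure D3:**
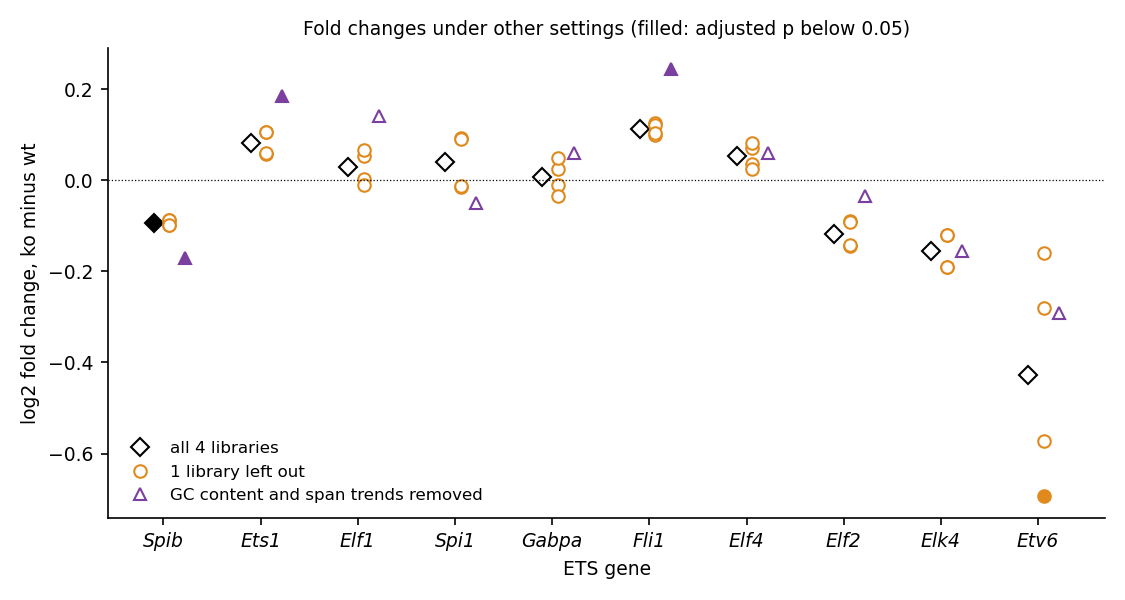
Log2 fold change (ko minus wt) of the 10 members with all 4 libraries (diamonds), with 1 library left out (circles) and with trends on GC content and genomic span removed (triangles), filled where the adjusted p was below 0.05. Etv6 ranges from -0.69 to -0.16 when 1 library is left out, and Ets1 and Fli1 are filled at 0.19 and 0.24 with the trends removed.

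The mouse list of ETS genes holds 17 others, of which 13 were listed in a table and 7 were tested. The median log2 fold change of the 7 was 0.07. None of them passed the threshold (limma), where 12.9% of all tested genes did. Only 1 gene passed an unadjusted p below 0.05, where 32.2% of all tested genes did. That gene was Erf, a repressor that MAP kinase signalling drives out of the nucleus, at 3.12 and 2.86 FPKM in wt against 3.99 and 4.11 FPKM in ko. The genotypes were well apart for Erf, with a mean 35.5% higher in ko (log2 fold change 0.34 ± 0.09 SE, 95% interval 0.13 to 0.55, limma adjusted p = 0.0526). It passed at a pseudocount of 5 FPKM (0.0491) and without the trend of spread on expression (0.0494). Etv3, its closest relative, was at 10.7 and 11.5 FPKM in wt against 12.5 and 11.6 in ko, and Ets2 at 10.5 and 11.2 in wt against 12.3 and 11.3 in ko, each with a log2 fold change of 0.11 (limma adjusted p = 0.320 and 0.326). Ehf, known from epithelia, was at 5.02 to 5.97 FPKM over the 4 libraries and Etv5 at 1.82 to 2.18. The 6 listed genes under the test level, Etv4, Etv3l, Spic, Etv1, Erg and Elf3, had means of 0.017 to 0.460 FPKM.

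Summed over the whole family, ETS transcripts came to 895.4 and 900.9 FPKM in wt against 886.6 and 894.6 FPKM in ko, with the 10 members making up 93.1% to 93.9% of each sum. The SPI class took 46.6% and 47.1% of it in wt against 44.8% and 45.1% in ko. The class of Ets1, Ets2 and Gabpa took 23.8% and 24.3% in wt against 25.2% and 25.8% in ko. Both ko libraries thus had a smaller SPI share and a larger share of the Ets1 class than both wt libraries, by differences of about 1 to 2 percentage points. The ELF class overlapped, at 17.9% and 17.2% in wt against 18.0% and 17.5% in ko. These shares are not independent, since Spib alone was 40.2% and 40.3% of the sum in wt against 38.1% and 38.0% in ko.

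**Figure D4:**
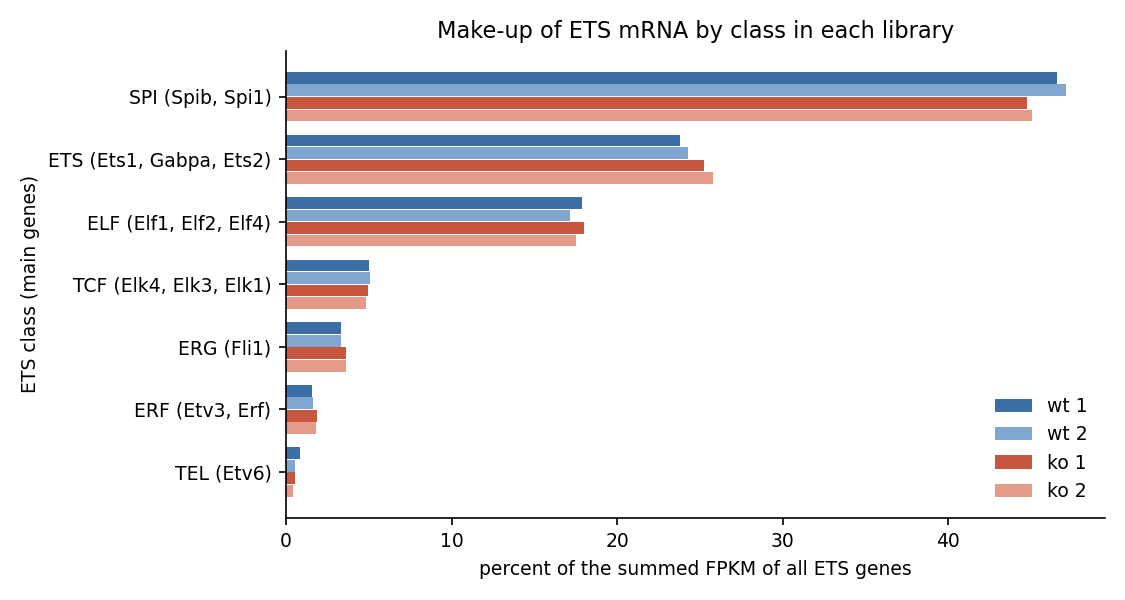
Share of the summed FPKM of all ETS genes, in percent, by class for the 4 libraries (wt in blue, ko in red). The SPI class is the largest, at 46.6% and 47.1% in wt against 44.8% and 45.1% in ko, while the ELF class overlaps between genotypes.

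Partner proteins and regulators of ETS factors were set beside the family. Of 14 tested partner genes 1 rose and 1 fell, near the 12.9% of all tested genes, with a median log2 fold change of 0.03. Runx3, a RUNX factor, was at 6.40 and 6.40 FPKM in wt against 9.95 and 10.8 in ko (log2 fold change 0.62 ± 0.07 SE, limma adjusted p = 0.00808). Myb, a factor of proliferating blood cells, was at 9.22 and 9.42 FPKM in wt against 6.91 and 6.49 in ko (-0.42 ± 0.07 SE, adjusted p = 0.0176). Irf8, the IRF partner of PU.1 with the higher level here, was at 216.9 and 220.7 FPKM in wt against 221.0 and 218.9 in ko, so the genotypes overlapped (log2 fold change 0.01, limma adjusted p = 0.861). Irf4 was at 15.9 and 16.4 in wt against 14.97 and 14.5 in ko (-0.12, adjusted p = 0.172). Tcf3 and Pax5 also missed the threshold, at 0.10 and 0.09 (adjusted p = 0.0863 and 0.091). With the trends on GC content and span removed Pax5 and Cbfb passed as well, which made 4 of 14, where 11.6% of all tested genes passed.

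Of 17 tested kinases, ubiquitin and SUMO factors and corepressors that act on ETS proteins, 3 fell and none rose, with a median log2 fold change of -0.01 (limma, 5 past an unadjusted p of 0.05). These counts lie near the background, with 12.9% of all tested genes past the threshold and 32.2% past the unadjusted p. Mapk8, a JNK kinase, was at 9.80 and 10.2 FPKM in wt against 7.46 and 7.38 in ko and fell by 0.39 on the log2 scale (limma adjusted p = 0.0181). Camk2d, a calcium-dependent kinase, fell by 0.19 (adjusted p = 0.0339), and Sin3a was at -0.12 (adjusted p = 0.0922). All 3 calls were lost when any 1 library was left out, as were most calls over all tested genes. With the trends on GC content and span removed 1 of the 17 rose, the ubiquitin ligase subunit Fbxw7 (0.23), and 1 fell, Mapk8 (-0.29).

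Genes that earlier work ties to ETS factors were counted in 4 lists, and B cell surface and signalling genes were among those that rose. Of 21 genes linked to PU.1 or Spi-B, 7 rose and 1 fell, beside 12.9% of all tested genes in either direction, and the median log2 fold change was 0.09. Fcer2a, the low-affinity IgE receptor, went from 68.1 and 68.4 to 81.3 and 81.4 FPKM (adjusted p = 0.00911). Cd72, an inhibitory receptor, rose by a log2 fold change of 0.28, the adaptor Grap2 by 0.56 and the kinase Syk by 0.14 (limma adjusted p = 0.0141, 0.0142 and 0.0196). The gene that fell was Cd79b, a signalling chain of the B cell receptor, from 634.6 and 634.2 to 586.1 and 594.2 FPKM. With 1 library left out fewer of the 21 passed, as did fewer of all tested genes. Of 11 tested genes linked to Ets1, Fli1 or Elf4, 6 rose and none fell (limma; 6 also past an unadjusted p of 0.05), with a median of 0.15, and they included Ighm (0.19), Il2rb (0.74) and Cr2 (0.26). Fcer2a and Cr2 are also among 11 markers of naive and marginal zone B cells. These 11 were all listed, summed to 380.7 and 373.9 FPKM in wt against 440.4 and 435.2 in ko, and 6 of them rose, so the lists are not independent of each other, and the part of such cells in the sort was not tested.

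Of 13 genes served by Srf with the ternary complex factors, 4 rose and none fell (limma; 7 past an unadjusted p of 0.05), with a median log2 fold change of 0.11. Over all tested genes 6.66% rose, 6.2% fell and 32.2% passed the unadjusted p. They were the immediate early genes Nr4a1 (0.55), Ier2 (0.35), Egr3 (0.49) and Fos (0.14), with Fos going from 50.8 and 49.99 to 56.0 and 55.5 FPKM (limma adjusted p = 0.0404). Fewer of the 13 passed with 1 library left out, as did fewer of all tested genes. With the trends on GC content and span removed the split became 2 that rose, Nr4a1 (0.46) and Egr3 (0.46), and 2 that fell, the immediate early genes Egr1 (-0.20) and Fosb (-0.25), with limma adjusted p of 0.0199, 0.0253, 0.0472 and 0.0462, and the median was 0.03. Of 15 tested genes of GABP subunits and genes tied to GABP, 1 fell and none rose, with a median log2 fold change of 0.00. This count lies near the 12.9% of all tested genes. With the trends on GC content and span removed 2 of the 15 fell and none rose, where 11.6% of all tested genes passed. Tfb1m, which modifies mitochondrial ribosomal RNA, was at 9.87 and 8.22 FPKM in wt against 6.52 and 5.59 in ko (log2 fold change -0.51 ± 0.11 SE, limma adjusted p = 0.0325). Tfam, the packaging factor of mitochondrial DNA, was at 48.5 and 46.4 in wt against 43.7 and 42.8 in ko (-0.13, adjusted p = 0.0731), and Cox5b at 98.0 and 105.8 in wt against 107.0 and 117.5 in ko (0.14, adjusted p = 0.145).

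Genes with the 3 ETS motifs searched were counted across the transcriptome, among the 7748 tested genes with a window. Of 834 genes with CCGGAAGT, 30 rose and 46 fell, 3.60% and 5.52%, with a median log2 fold change of 0.01 and a median absolute change of 0.08. Of 313 genes with GAGGAAGT, 30 rose and 15 fell, 9.58% and 4.79%, with a median of 0.02. Of 223 genes with the composite ETS-IRF motif, 20 rose and 11 fell, 8.97% and 4.93%, with a median of -0.01. Over all 7748 genes 6.58% rose and 6.13% fell, with a median of 0.01 and a median absolute change of 0.10. A match of letters does not show that a factor binds there, and no difference between these shares was tested.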

How the data were processed

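RNA of sorted splenic GC B cells was turned into mRNA-seq libraries, per the labels' protocols. The authors deposited 1 table per library with gene ID, symbol, locus and FPKM, per the file headers. The submitters' processing notes name Bowtie2 2.2.9, TopHat2 2.1.1 and mm10 without a role. The sources used here do not state which tool made the FPKM values, its annotation or its use of strand. FPKM hides depth, so absolute depth is unknown, and relative depth came from the steps between the lowest values. Genes missing from a table were set to 0. In GENCODE M21 (GRCm38, which is mm10) 99.4% of IDs were found.

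The 10883 genes averaging 1 FPKM or more were tested in R 4.3.3 by limma 3.58.1, using log2(FPKM + 1) and a spread that follows expression, with Benjamini-Hochberg adjustment at 0.05. The pseudocount of 1 shrinks fold changes of low genes. The fit was tested on simulated data. GC content is that of the longest transcript. Alternatives were pseudocounts, filters, scalings, the replicate block, removal of GC content and span trends, and leaving out each library. Promoters are RefSeq's (GRCm38.p6). Named genes were the members, tested ETS genes, Nsd2, and from each list up to 4 genes of smallest p, or for other cell types up to 3 of highest FPKM. Irf4, Irf8, Srf, Gabpb1, Gabpb2, Atp5j, Mfsd4, Wbp4, Cd3e, Cd3d, Cd4, Csf1r, Adgre1, Siglech, Clec10a, Cdh5, Cbfb, Fbxw7, Egr1 and Fosb were added after their values were seen. Some genes that the rule covers are not reported here. Members and lists were chosen with earlier results of these data known. Python 3.11.15, pandas 2.3.3 and numpy 2.4.6 were used.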

Additional observations from a re-analysis of the deposited data

How the results depend on the processing

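The fold changes of Spib, Elk4, Elf2, Etv6, Ets1, Fli1 and Elf4 kept their direction under the 12 alternatives that could move a fold change. The other 5 of the 17 (no filter, a mean of at least 5 FPKM, no trend of spread, a robust prior and the replicate block) leave it as it is, and Spib passed the threshold in 10 of the 17. Small values flipped sign without a call. Spi1 ranged from -0.014 (without wt 1) to 0.092 with 1 library left out, and was at -0.050 with GC content and span trends removed, with or without the replicate block, and at -0.060 with the GC content trend alone removed. Gabpa was at -0.0015 after median-of-ratios scaling, -0.0033 after quantile normalization, and -0.035 to 0.049 with 1 library left out, and Elf1 ranged from -0.0099 to 0.066 with 1 library left out. The removal of either trend alone was chosen after seeing the data.

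Among the members, 1 fell in the main setting, where 1400 of 10883 genes passed. None fell without the trend of spread (536 of 10883 genes passed), without a filter (14 of 20735) or with the replicate block (917 of 10883). At an adjusted p below 0.10 there were 2 (with Elk4), and the count over all genes is not given there. With 1 library left out the Spib call was lost, as were most calls over all tested genes. None rose in the main setting. With both trends removed 2 rose (1258 of 10883 genes passed), as with the span trend removed (1339). With the GC content trend removed 1 rose (1294), and with the replicate block and both trends 3 did (1321). Among other ETS genes the count went from 0 to 1 (Erf) at a pseudocount of 5 FPKM, without the trend of spread or at 0.10.

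Without a filter on low values 14 of 20735 genes passed in all, and each list and motif group was at 0. Without the trend of spread 536 genes passed, with 1 linked to PU.1 or Spi-B, 1 to Ets1, Fli1 or Elf4, 2 to Srf, 0 to GABP, 1 regulator, and 16, 13 and 13 genes with CCGGAAGT, GAGGAAGT and the composite ETS-IRF motif, where the main setting gave 76, 45 and 31. At 0.10 these were 151, 77 and 53, with 4 partners and 2 genes tied to GABP. The replicate block gave 39 and 29 for the CCGGAAGT and GAGGAAGT groups. With both trends removed, alone or with the block, 4 partners and 2 GABP genes passed, and 2 GABP genes with the span trend alone. With the GC content trend alone 5 genes linked to PU.1 or Spi-B and 1 regulator passed. With 1 library left out the groups gave 11 to 19, 11 to 20 and 8 to 14, and the lists 2 to 3 (PU.1 or Spi-B), 3 to 4 (Ets1, Fli1 or Elf4), 1 to 1 (Srf), 0 to 1 (GABP), 1 to 2 (partners) and 0 to 0 (regulators). The causes of these shifts were not tested. Settings without a library also had fewer libraries, and a changed filter also changed the number of genes tested.

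Same-numbered libraries did not deviate together (correlation of deviations -0.083 across 10883 genes), so the numbers are not taken as pairs; the block took the count of calls from 1400 to 917. Median-of-ratios scaling changed the split of calls from 725 up and 675 down to 633 and 712. With 2 libraries a group the intervals tend to be wide for low genes. Erf (35.5% higher) and Etv6 (30.6% lower) did not pass, and the part of their level in this was not tested.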
